A study of Mus musculus with 12 samples.

Results

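The immunoglobulin kappa variable (V) segments are the gene pieces that encode most of the variable domain of the kappa light chain of antibodies. They were taken as every row of the count table whose symbol begins with Igkv, which gave 160 of 55291 rows. All 160 had an entry in GENCODE M21 (mm10), where 100 are annotated as functional V genes and 60 as pseudogenes, and the first number of the symbol places them in 20 subfamilies. A total of 50353 counts fell on them over the 12 libraries. The 31 segments with 0 counts in every library were all pseudogenes, 129 segments had a count, and 57 had a count in each of the 12 libraries.

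RNA was measured in non-adherent cells of mouse bone marrow, labelled progenitors, from mice about 8 weeks old, after about 24 hours in culture. The 12 libraries formed 4 groups of 3. Mice labelled only as control were untreated (control untreated) or drank water with short-chain fatty acids, the products of fibre fermentation by gut bacteria (control SCFA). Mice of genotype STAT3Cstopfl/fl CD4Cre were likewise untreated (homozygous untreated) or treated (homozygous SCFA), and the genotype label of homozygous untreated 1 alone adds R26. This allele encodes a constitutively active form of the transcription factor STAT3 behind a stop cassette, which Cre driven by CD4 removes mainly in T cells, so B lineage cells are not its main target. The title of the study concerns short-chain fatty acids and bone remodelling by osteoclasts in arthritis. The alleles of the control mice, the dose and the number of mice are not stated in the labels. Whether the 3 libraries of a group are from different mice is not labelled, and the p-values measure no more than the spread among them. Untreated libraries are dated day 1 and SCFA libraries day 30 of month 3, so date and treatment cannot be told apart wherever treatments are compared.

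Total counts ranged from 16954355 to 20748995 per library, so that 3 counts, the most that a count of 0 allows, correspond to 0.145 to 0.177 CPM (counts per 1000000 counted reads) in a library. This floor covers counting error only. Control untreated 2 stood apart from the other libraries of its group on the second principal component. The progenitor markers Kit and Cd34, chosen after the data were seen, were at 45.1 to 73.0 and 45.5 to 87.5 CPM, while 8 neutrophil markers summed to 36198 to 66783 CPM and 6 monocyte markers to 4268 to 6977 CPM. Markers of several lineages were thus present beside those of progenitors.

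A B cell builds its kappa light chain gene by joining 1 V segment to 1 of the joining (J) segments, a cut and paste reaction started by the RAG1 and RAG2 recombinase at signal sequences beside each segment. The joined exon is then spliced to the constant exon, Igkc. Immature B cells that fail or self-react can join again with another V segment, and cells that exhaust kappa can turn to the lambda locus. Before kappa is made, pre-B cells pair the heavy chain with a surrogate light chain.

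On mm10 the segments lie on chromosome 6 between 67555497 and 70704177, upstream of Igkj1 (70722562 to 70722599, plus strand) and Igkc (70726435 to 70726966, plus strand). In 75 segments the annotated strand is that of the J segments, and 85 lie in the opposite orientation. The midpoint of the locus divides them into a near side, toward the J segments, with 88 segments and a far side with 72. The exonic sequence of the 84 segments that were tested runs from 338 to 501 bases, with a median of 362.5. Many are close relatives: the nearest other segment was at least 95% identical for 43 of the 84. In 51 of the 84, fewer than 80% of the 50-base stretches were unique, that is, absent from the transcripts of every other gene in GENCODE M21. No label says how reads that fit several segments were counted, so values of single members of close pairs are uncertain.

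The 3′ ends of several segments are shown because this end enters the antigen-binding loop at the V to J joint and marks the relations among the segments described here. Each line is the last 60 bases of the GENCODE M21 transcript on mm10, 5′ to 3′ on the strand of the segment. Capitals mark codons for tyrosine, then tyrosine or phenylalanine, then the cysteine that precedes the joint. Igkv1-99 and Igkv6-20 were added after their values were seen, and the codons in capitals were not found in Igkv6-20, whose line is all in lower case.
Igkv19-93: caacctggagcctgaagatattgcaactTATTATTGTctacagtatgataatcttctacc
Igkv1-135: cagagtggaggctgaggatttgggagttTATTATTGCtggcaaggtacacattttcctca
Igkv1-99: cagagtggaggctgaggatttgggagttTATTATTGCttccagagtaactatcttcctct
Igkv6-15: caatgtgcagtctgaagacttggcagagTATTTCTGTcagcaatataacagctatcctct
Igkv6-23: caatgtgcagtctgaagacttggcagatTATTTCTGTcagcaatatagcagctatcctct
Igkv6-20: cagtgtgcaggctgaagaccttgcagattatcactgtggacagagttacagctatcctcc
Igkv10-96: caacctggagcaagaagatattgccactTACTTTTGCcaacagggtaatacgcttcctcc
Igkv16-104: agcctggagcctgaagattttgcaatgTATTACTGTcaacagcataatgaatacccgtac

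The codon run, searched on the transcript strand as TAT or TAC, then TAT, TAC, TTT or TTC, then TGT or TGC, was matched in the last 60 bases of 97 of 100 functional segments and 34 of 60 pseudogenes (56.7%). The search ignored reading frame and position within those bases, so a match need not be the codon run before the joint. Igkv1-99 and Igkv1-135 have the same bases up to and including that run and differ after it, and over their full exons they were 75.5% identical. Igkv6-15 and Igkv6-23 were 94.5% identical. Igkv19-93 and Igkv16-104 had no 50-base stretch in common with another segment.

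Summed over all segments, kappa V transcripts were lower in homozygous than in control libraries, and far more so under SCFA. The sums were 299, 243.7 and 303 CPM in control untreated, 194, 204 and 189.9 CPM in homozygous untreated, 302, 353 and 339 CPM in control SCFA, and 81.9, 74.1 and 61.0 CPM in homozygous SCFA. Every homozygous SCFA library was below every other library. The means were 282 ± 33.1, 196 ± 7.34, 331 ± 26.4 and 72.3 ± 10.5 CPM (SD, n = 3). Homozygous untreated was 1.44-fold lower than control untreated (log2 ratio -0.52) and homozygous SCFA 4.58-fold lower than control SCFA (log2 ratio -2.20), with no overlap of libraries in either comparison. Within genotypes, homozygous SCFA was 2.71-fold lower than homozygous untreated (log2 ratio -1.44), whereas control SCFA and control untreated overlapped (log2 ratio 0.23). On TMM-scaled libraries these last groups did not overlap, with a log2 ratio of 0.34. In bulk RNA, fewer B lineage cells and less kappa RNA per cell cannot be told apart.

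**Figure D1:**
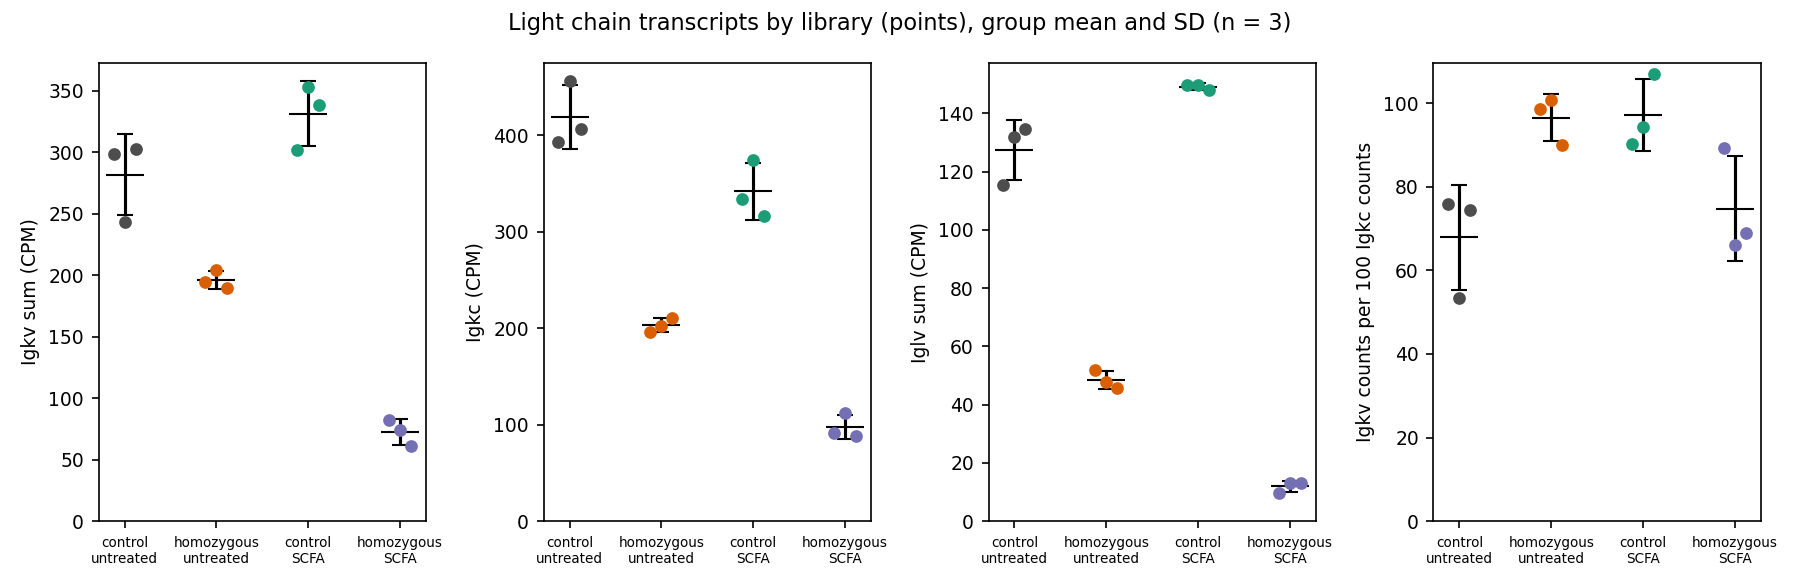
Summed Igkv, Igkc and summed Iglv (lambda V) levels in CPM, and Igkv counts per 100 Igkc counts, in each library (points), with the group mean (line) and SD (bars, n = 3). The homozygous SCFA libraries lie at 61.0 to 81.9 CPM of summed Igkv, and the control SCFA libraries at 302 to 353 CPM.

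Igkc, the constant exon shared by all kappa chains, was at 419 ± 33.1, 203 ± 7.13, 342 ± 29.7 and 97.5 ± 12.8 CPM in the same group order. By edgeR's quasi-likelihood test, adjusted over 15674 genes, Igkc fell with genotype without SCFA (log2 fold change -0.89, SE 0.11, adjusted p = 2.2e-04), with genotype under SCFA (-1.80, SE 0.12, adjusted p = 8.6e-08) and with SCFA in homozygous mice (-1.09, SE 0.12, adjusted p = 2.1e-05). The ratio of Igkv to Igkc counts was not constant. It also depends on how reads that fit several segments were counted, so it need not compare 2 ends of the same RNA. Igkv counts per 100 Igkc counts were 76.0, 53.4 and 74.4 in control untreated, 98.7, 101 and 90.1 in homozygous untreated, 90.4, 94.3 and 107 in control SCFA, and 89.2, 66.1 and 69.0 in homozygous SCFA. Against Igkc, kappa V was thus higher in homozygous untreated than in control untreated (log2 ratio 0.51) and lower in homozygous SCFA than in control SCFA (log2 ratio -0.38), with no overlap in either, also without control untreated 2.

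Igkv19-93 (ENSMUSG00000098814.2, 68736297 to 68736780, minus strand) had the highest level per exon length, a mean of 59.1 CPM per kb over the 12 libraries. Next were Igkv6-15 with 26.4, Igkv10-96 with 25.9, Igkv1-135 with 24.4, Igkv6-23 with 22.7 and Igkv14-111 with 21.1 CPM per kb, and the order among these neighbours changed from library to library. Not corrected for length, Igkv19-93 took 7.67% to 13.6% of all kappa V counts and was the most counted segment in 10 of 12 libraries. The exceptions were homozygous SCFA 2, led by Igkv6-15 (6.44%), and homozygous SCFA 3, led by Igkv15-103 (7.82%). Its levels were 26.4, 18.7 and 26.6 CPM in control untreated, 26.4, 19.4 and 17.9 CPM in homozygous untreated, 30.5, 35.7 and 37.0 CPM in control SCFA, and 11.1, 4.32 and 3.26 CPM in homozygous SCFA. The untreated groups overlapped, and homozygous SCFA was below both.

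**Figure D2:**
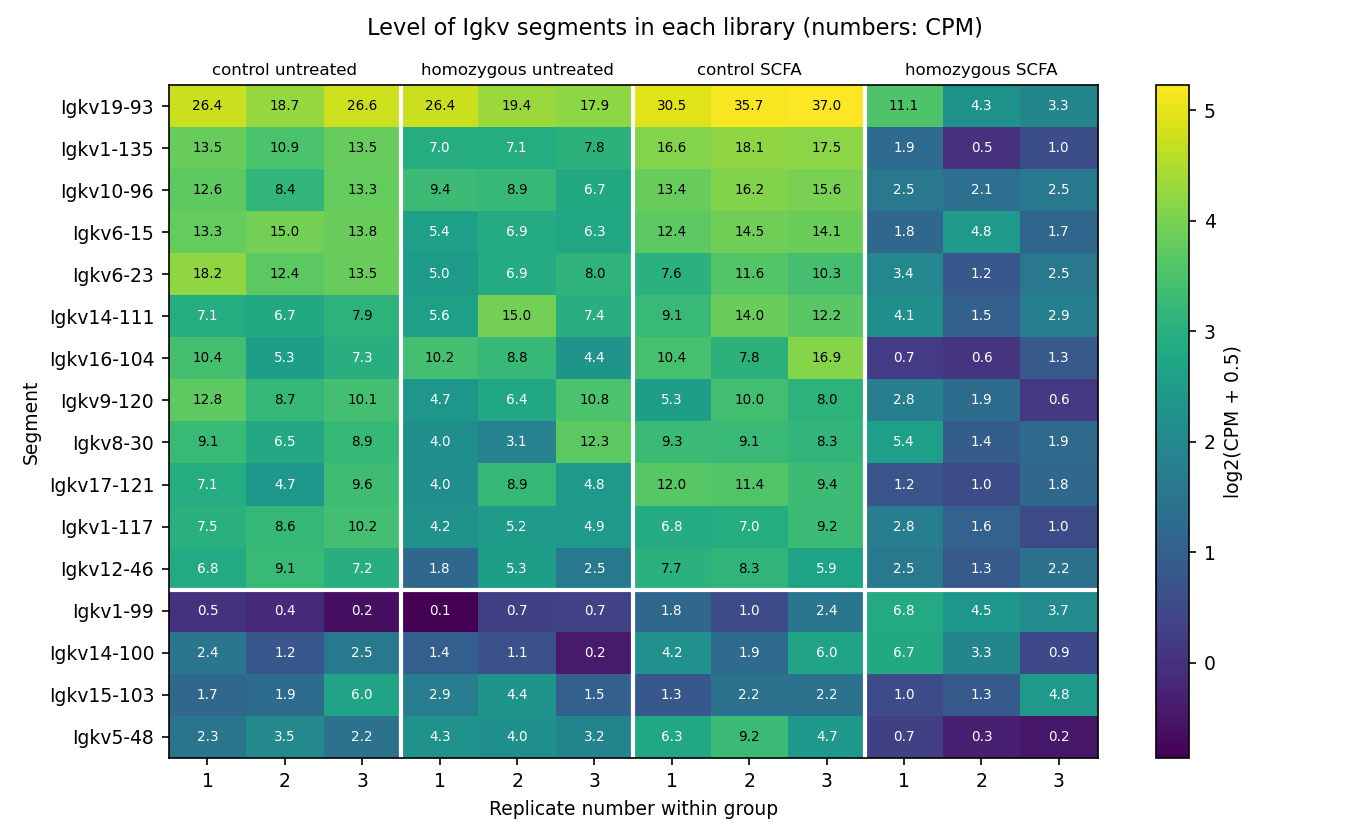
Level of 16 segments in each of the 12 libraries (colour, log2 of CPM + 0.5; printed numbers, CPM). The upper 12 are the segments with the highest mean level, and the lower 4 were added after their values were seen; among them is Igkv1-99, which is highest in the 3 homozygous SCFA columns, where the other rows are mostly dark.

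To be tested, a segment had to pass edgeR's filterByExpr, and 84 of 160 did (82 functional, with Igkv4-73 and Igkv4-77 as the 2 pseudogenes), holding 98.1% of all kappa V counts. Of the 76 left out, 45 had some counts. Just inside the filter was Igkv4-90, with 61 counts in all, and just outside was Igkv1-122, with 110 counts, of which 52 were in homozygous SCFA 2. A segment could pass through the group where it was high, so the counts below describe the 84 that passed and not all 160. With the 2 homozygous groups alone, 54 segments passed. Segments that passed only through control libraries favour negative values in comparisons with homozygous SCFA.

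Without SCFA, 4 of the 84 tested segments fell in homozygous against control mice and 0 rose (edgeR, adjusted p under 0.05), against 14.8% of all tested genes called in either direction (8.13% lower and 6.69% higher). The share of segments called was below that background, although the median log2 fold change of the 84 was -0.66, against -0.04 over all genes, and 13 had an unadjusted p under 0.05. In 31 segments all homozygous libraries were below all control libraries, a pattern shown by 22.9% of all genes, and in 0 were they above, against 9.18%. The 4 were Igkv6-20, Igkv3-2, Igkv6-15 and Igkv6-23, of which 3 belong to subfamily Igkv6, and all 4 lie on the near side of the locus, which held 46 tested segments.

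Igkv6-20 (ENSMUSG00000076587.3, 70335841 to 70336507, minus strand) was at 3.03, 3.01 and 3.80 CPM in control untreated and 0.564, 0.487 and 0.996 CPM in homozygous untreated (log2 fold change -2.11, SE 0.50, adjusted p = 0.0145). It is 98.7% identical to Igkv6-29, and 35.9% of its 50-base stretches are unique, so its counts may be shared. Igkv6-15 (70406469 to 70406992, minus strand) was at 13.3, 15 and 13.8 CPM against 5.44, 6.92 and 6.27 CPM, without overlap (log2 fold change -1.03, SE 0.30, adjusted p = 0.0368). Igkv6-23 (70260409 to 70260955, minus strand) was at 18.2, 12.4 and 13.5 CPM against 4.98, 6.87 and 8.02 CPM (-1.01, SE 0.32, adjusted p = 0.0487). Igkv3-2 (70698449 to 70699067, plus strand), 23.5 kb from Igkj1, was at 1.63, 4.72 and 3.06 CPM against 0.923, 0.634 and 0.747 CPM (-1.86, SE 0.53, adjusted p = 0.0319). The most abundant segment, Igkv19-93, did not move detectably (-0.02, SE 0.34, adjusted p = 0.972).

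This count of 4 depended on single libraries. It was 1 when control untreated 2 or 3 was left out, and 0, 1 and 2 when homozygous untreated 1, 2 and 3 were left out in turn. It was also 2, 1 and 2 without control SCFA 1, 2 and 3, which enter through the shared estimate of spread. Igkv6-20 lost its call without homozygous untreated 1 (adjusted p = 0.0640) or 2 (adjusted p = 0.0712) and kept it without any other library. Igkv6-15 lost it without each of 8 libraries, Igkv3-2 without each of 6 and Igkv6-23 without each of 10, with the direction kept each time.

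Under SCFA the fall was broad. Of the 84 segments 50 fell and 0 rose in homozygous against control mice, while 17.4% of all tested genes were called (8.47% lower and 8.89% higher). The median log2 fold change was -2.30 against -0.02 over all genes, 80 of 84 values were negative, and 65 had an unadjusted p under 0.05. The median and the number of negative values are partly set by the filter, which segments could pass through the control libraries. All homozygous libraries were below all control libraries in 66 segments, against 21.3% of all genes, and above them in 1, Igkv1-99, against 17.9%. The falls were spread over the locus, with 27 of 46 tested segments on the near side and 23 of 38 on the far side, and over orientations, with 31 of 52 opposite to the J segments and 19 of 32 in the same direction.

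**Figure D3:**
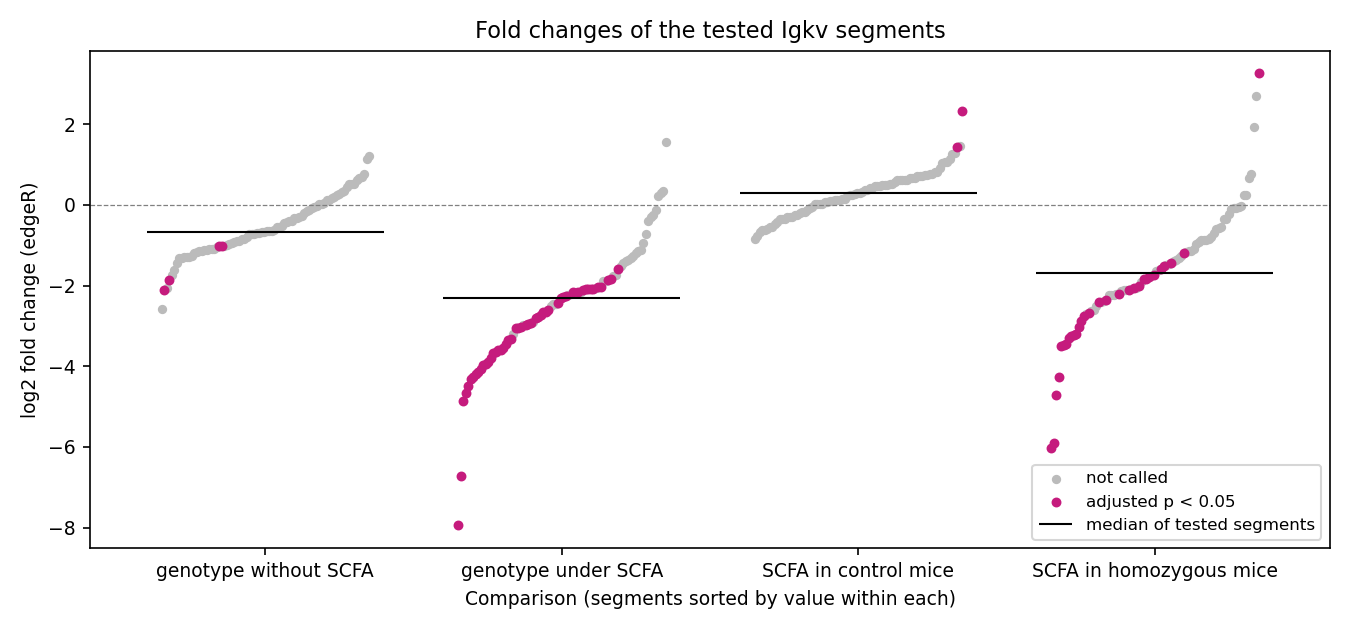
log2 fold change of each of the 84 tested Igkv segments (points, sorted within each comparison), with called segments (adjusted p under 0.05) in magenta and the median as a line. The medians lie at -0.66, -2.30, 0.30 and -1.69 from left to right, and the single called point far above 0 on the right is Igkv1-99.

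All 12 segments with the highest mean levels fell under SCFA. Igkv1-135 (ENSMUSG00000096336.2, 67609713 to 67610508, plus strand), one of the segments farthest from the J cluster, went from 16.6, 18.1 and 17.5 CPM in control SCFA to 1.91, 0.508 and 1.01 CPM in homozygous SCFA (log2 fold change -3.90, SE 0.34, adjusted p = 1.8e-06). Igkv10-96 (68631963 to 68632442, minus strand) went from 13.4, 16.2 and 15.6 CPM to 2.48, 2.08 and 2.53 CPM (-2.66, SE 0.26, adjusted p = 5.4e-06). Igkv16-104 (68425575 to 68426072, plus strand) went from 10.4, 7.83 and 16.9 CPM to 0.671, 0.559 and 1.29 CPM (-3.79, SE 0.47, adjusted p = 7.8e-05). In each of these the groups were far apart relative to the spread within them. Igkv19-93 fell by 2.44 on the log2 scale (SE 0.36, adjusted p = 4.4e-04). The remaining 8 of the 12 had log2 fold changes between -3.04 (Igkv17-121) and -1.59 (Igkv8-30, adjusted p = 0.0469). Igkv8-30 was the weakest of these calls: it was lost when any one of 8 libraries was left out. Without homozygous SCFA 1 the value of Igkv19-93 was -3.19, that of Igkv1-135 -4.53 and that of Igkv8-30 -2.45, and without homozygous SCFA 2 that of Igkv6-15 was -2.92 in place of -2.29.

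The largest falls were in segments with few counts. Igkv1-35 had 97 counts over the control SCFA libraries and 0 over the homozygous SCFA libraries, at least 31.3-fold lower (adjusted p = 0.00146), and Igkv8-18 had 39 and 0, at least 12.6-fold lower (adjusted p = 0.00301), with the floor of 3 counts taken over the group. Igkv11-125 had 68 and 2 counts, a ratio of 0.0304 (95% counting interval 0.00360 to 0.114, adjusted p = 0.00452). Igkv1-133 had 87 and 3 counts, a ratio of 0.0356 (0.00720 to 0.108, adjusted p = 0.00288). Igkv8-28 was at 2.02, 3.08 and 2.51 CPM against 0.103, 0.102 and 0.112 CPM (log2 fold change -4.49, SE 0.64, adjusted p = 3.0e-04). All 5 calls held without each single library, although the fitted log2 value moved from -4.66 to -5.56 for Igkv1-133 without homozygous SCFA 3 and from -4.85 to -4.14 for Igkv11-125 without control SCFA 3.

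Igkv1-99 moved the other way. It lies at 68541644 to 68542422 on the plus strand (ENSMUSG00000076525.3), and 97.3% of its 50-base stretches are unique, its nearest relative being Igkv1-122 at 83.2% identity. Its levels were 0.524, 0.413 and 0.159 CPM in control untreated, 0.0513, 0.731 and 0.747 CPM in homozygous untreated, 1.78, 0.979 and 2.40 CPM in control SCFA, and 6.81, 4.52 and 3.71 CPM in homozygous SCFA. These are 9, 7 and 3 counts, 1, 15 and 15 counts, 37, 20 and 42 counts, and 132, 89 and 66 counts. All SCFA libraries were above all untreated libraries, and within SCFA the homozygous libraries were above the control libraries. As a share of all kappa V counts it was at most 0.393% in untreated libraries, 0.277% to 0.707% in control SCFA, and 8.32%, 6.10% and 6.07% in homozygous SCFA.

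By edgeR, Igkv1-99 rose with SCFA in homozygous mice (log2 fold change 3.26, SE 0.69, adjusted p = 0.00864), a call kept in all 19 alternatives. It also rose with SCFA in control mice (2.33, SE 0.71, adjusted p = 0.0321), but that call was lost without control untreated 2 (adjusted p = 0.0919) or 3 (0.112), or without control SCFA 1 (0.0629) or 3 (0.125). Between genotypes under SCFA the value was 1.56 (SE 0.63, adjusted p = 0.106), which passed the threshold in a fit of the compared groups alone (adjusted p = 0.0171), by limma-voom (0.0124) and without homozygous untreated 1 (0.0448), and did not in the other 16 alternatives (up to 0.278). Between genotypes without SCFA it was 0.62 (SE 0.73, adjusted p = 0.592), and the interaction was 0.94 (SE 0.98, adjusted p = 0.512), so a different SCFA response in the genotypes was not detected.

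Among its neighbours, named after their values were seen, Igkv14-100 lies 22.2 kb away and had 41, 21 and 48 counts in control untreated, 28, 22 and 5 in homozygous untreated, 87, 39 and 105 in control SCFA, and 129, 65 and 16 in homozygous SCFA. Its groups overlapped in all 4 comparisons and it was not called (adjusted p = 0.105 to 0.919). Igkv12-98, 28.3 kb to the other side, had 5, 3 and 23 counts in homozygous SCFA and 20, 24 and 44 in control SCFA. Igkv15-103, 104 kb away, was uneven, with 19, 26 and 85 counts in homozygous SCFA and 30, 33 and 113 in control untreated. Igkv16-104, 116 kb away, was among the segments that fell.

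With SCFA in control mice, 2 of 84 segments rose and 0 fell, against 21.9% of all genes called (8.89% higher and 13% lower), so fewer segments than genes at large were called. The median log2 fold change was 0.30, against 0.04 over all genes, and 4 had an unadjusted p under 0.05. All SCFA libraries were above all untreated libraries in 9 segments (13.9% of all genes) and below in 2 (23.3% of all genes). Besides Igkv1-99 the rise was in Igkv5-48 (69726573 to 69727138, minus strand), at 2.33, 3.54 and 2.22 CPM in control untreated and 6.31, 9.25 and 4.73 CPM in control SCFA (log2 fold change 1.43, SE 0.39, adjusted p = 0.0209). That call was lost without control SCFA 2 (adjusted p = 0.0952) or 3 (0.0503) or control untreated 3 (0.0760). The count of 2 was 1 without control untreated 2, control SCFA 1 or control SCFA 2, and 0 without control untreated 3 or control SCFA 3.

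In homozygous mice the same Igkv5-48 fell with SCFA, from 4.26, 4.05 and 3.19 CPM to 0.722, 0.305 and 0.225 CPM (log2 fold change -3.20, SE 0.45, adjusted p = 3.5e-04). In all, 29 segments fell and 1, Igkv1-99, rose with SCFA in homozygous mice, against 9.58% of all genes called (5.61% lower and 3.96% higher). The median was -1.69, against -0.0020 over all genes, and 48 had an unadjusted p under 0.05. The libraries were separate with SCFA lower in 40 segments (15.3% of all genes) and with SCFA higher in 1 (14.3% of all genes). Positive values, called or not, numbered 7 of 84. Among them was Igkv4-90, which went from 3 to 21 counts over the group (ratio 7.40, 95% counting interval 2.21 to 38.7) and was not called. Without the filter, and by DESeq2, 2 segments were called higher.

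The largest falls here were Igkv1-35, with 24 counts against 0 (at least 7.57-fold lower), Igkv8-18, with 22 against 0 (at least 6.94-fold lower), and Igkv14-130, with 65 against 2 (ratio 0.0325, 95% counting interval 0.00386 to 0.122). They were followed by Igkv5-45 (log2 fold change -4.26, adjusted p = 0.00565) and Igkv10-95 (-3.49, adjusted p = 0.0138). Igkv5-45 is 98.4% identical to Igkv5-43, and Igkv10-95 is 97.1% identical to Igkv10-94. Of the abundant segments, Igkv1-135 fell by 2.69, Igkv16-104 by 3.25, Igkv17-121 by 2.20, Igkv10-96 by 1.85 and Igkv19-93 by 1.79 on the log2 scale (edgeR, adjusted p = 1.0e-04 to 0.00609). Calls were lost without homozygous SCFA 2 for Igkv1-35 (adjusted p = 0.0549), Igkv14-130 (0.0539) and Igkv19-93 (0.0503), and without homozygous SCFA 3 for Igkv1-35 (0.0531) and Igkv10-95 (0.0640). Igkv14-130 was also lost without homozygous untreated 3 (0.0631). Without homozygous SCFA 1 the value of Igkv19-93 was -2.56 and that of Igkv1-135 -3.33. Without homozygous SCFA 2 the value of Igkv5-45 was -5.12 and that of Igkv10-95 -5.20, and without homozygous untreated 1 that of Igkv5-45 was -3.51.

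The interaction, the genotype difference under SCFA minus that without, was tested directly. It was negative and called in 31 of 84 segments and positive in 0, against 25.1% of all genes called (11.6% negative and 13.6% positive), with a median of -2.04 (-0.08 over all genes) and an unadjusted p under 0.05 in 42. For those segments the genotype difference was more negative under SCFA than without it. Some had no fall without SCFA. Igkv14-111 was at a log2 fold change of 0.53 there (edgeR, adjusted p = 0.353) and Igkv16-104 at 0.17 (adjusted p = 0.807). Igkv5-48 had the smallest p (log2 difference -4.63, SE 0.60, adjusted p = 3.1e-04), followed by Igkv1-135 (-3.25, SE 0.44, adjusted p = 4.2e-04) and Igkv10-96 (-2.35, SE 0.34, adjusted p = 7.6e-04). Igkv6-20, with the largest fall without SCFA among the calls, had an interaction of -0.69 (SE 0.70, adjusted p = 0.499), and Igkv3-2 one of 0.47 (SE 0.74, adjusted p = 0.673).

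Subfamilies group segments by sequence relation, and their shares of all kappa V counts, not corrected for length, show how the repertoire was divided. In the order control untreated, homozygous untreated, control SCFA, homozygous SCFA, which is kept from here on, Igkv6 held 15.5% ± 1.28, 9.95% ± 1.09, 11.8% ± 0.860 and 11.0% ± 2.19 of the counts (SD, n = 3). Control untreated lay above homozygous untreated and above control SCFA without overlap. In CPM, Igkv6 was at 43.5 ± 3.92, 19.5 ± 1.91, 39.3 ± 5.29 and 7.91 ± 1.51, and all 7 of its tested members fell with genotype under SCFA. Igkv1 held 10.2% ± 0.446, 8.86% ± 0.346, 10.7% ± 0.764 and 14.1% ± 1.36, highest in homozygous SCFA, where Igkv1-99 alone made up 6.07% to 8.32% of all kappa V counts, although 5 of its 7 tested members fell with genotype under SCFA. Igkv4, the subfamily with the most tested members, held 9.71% to 13% as group means, and 9 of its 23 tested members fell with genotype under SCFA. Igkv8 held 9.81% to 10.6% and had 6 of 8 tested members fall. In that comparison 50 of all 84 tested segments fell, and 8.47% of all tested genes were called lower.

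**Figure D4:**
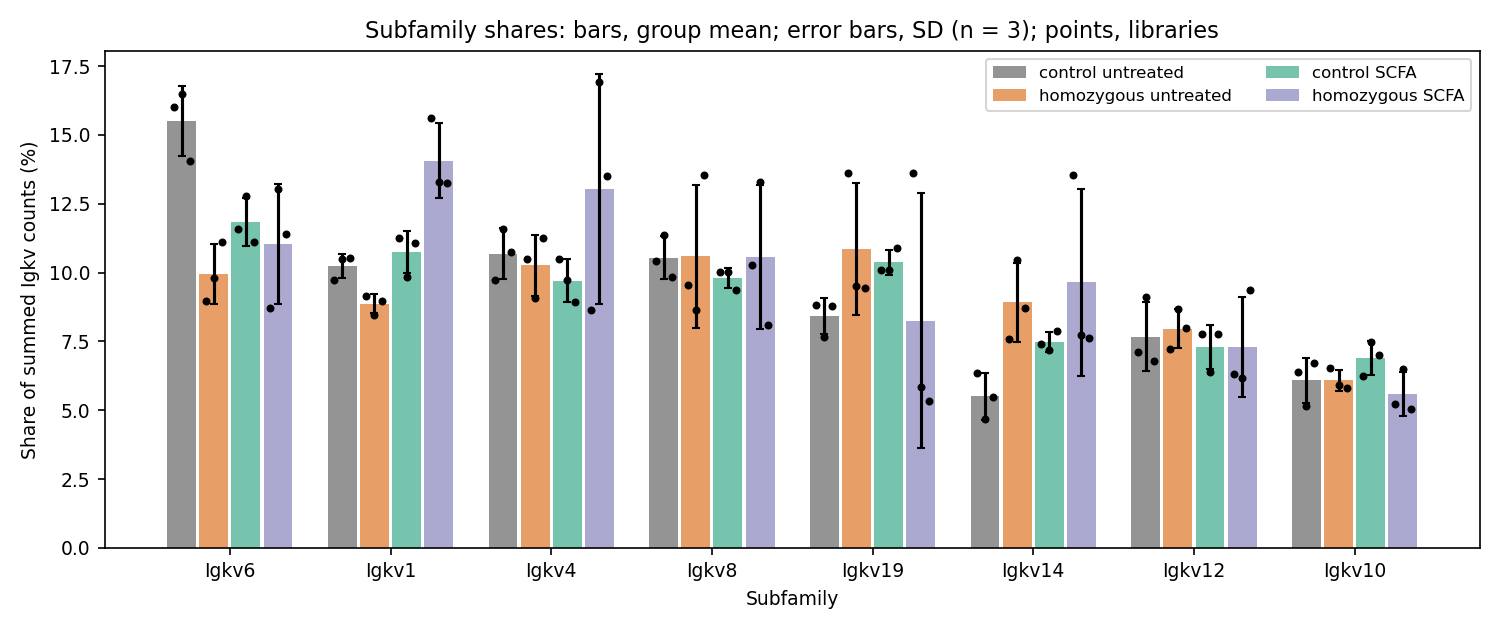
Share of summed Igkv counts in the 8 largest subfamilies (bars, group mean; error bars, SD, n = 3; points, libraries). Igkv6 is highest in control untreated (15.5%), Igkv1 in homozygous SCFA (14.1%), and the spread within homozygous SCFA is wide for several subfamilies.

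The number of segments with at least 1 count was 108.3 ± 4.04, 96.7 ± 4.04, 110 ± 3.61 and 80 ± 2.65. Fewer counts detect fewer segments, so each library was also brought to 1087 kappa V counts, the smallest sum. At that depth the numbers were 94.5 ± 1.79, 85.6 ± 2.06, 93.1 ± 1.51 and 77.5 ± 4.44, and neither homozygous group overlapped its control group. The effective number of segments, the inverse of the summed squared shares, was 35.5 ± 1.43, 28.9 ± 2.35, 32.7 ± 1.47 and 29.1 ± 7.86. It ran from 20.0 to 33.8 within homozygous SCFA, so that group overlapped control SCFA. The 10 most counted segments of a library held 42.0% to 43.9%, 45.9% to 47.4%, 42.8% to 44.4% and 44.1% to 58.9% of its counts.

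Libraries of 1 group also differed in which segments they used. The difference between a pair of libraries was taken as the share of counts that would have to change segment to make their shares equal. It was 13.8% to 16.3% within control untreated and 11.8% to 13.7% within control SCFA, but 24.4% to 25.0% within homozygous untreated and 38.7% to 41.1% within homozygous SCFA. Between the control groups it was 14.5% to 22.4%, and between control SCFA and homozygous SCFA 35% to 42.5%, a range that overlaps the one within homozygous SCFA. Fewer counts raise this measure, so the spread was also set against counting error, as chi-square per degree of freedom over segments with at least 15 counts in the group. It was 4.32 over 92 segments in control untreated, 9.70 over 80 in homozygous untreated, 4.52 over 95 in control SCFA and 11.6 over 53 in homozygous SCFA, where 1 is counting error alone. Examples are Igkv8-30, at 4.0, 3.07 and 12.3 CPM in homozygous untreated and 5.42, 1.42 and 1.85 CPM in homozygous SCFA but 9.35, 9.05 and 8.33 CPM in control SCFA. Igkv15-103 was at 0.980, 1.32 and 4.77 CPM in homozygous SCFA, but it was also uneven in control untreated, at 1.75, 1.95 and 5.97 CPM.

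**Figure D5:**
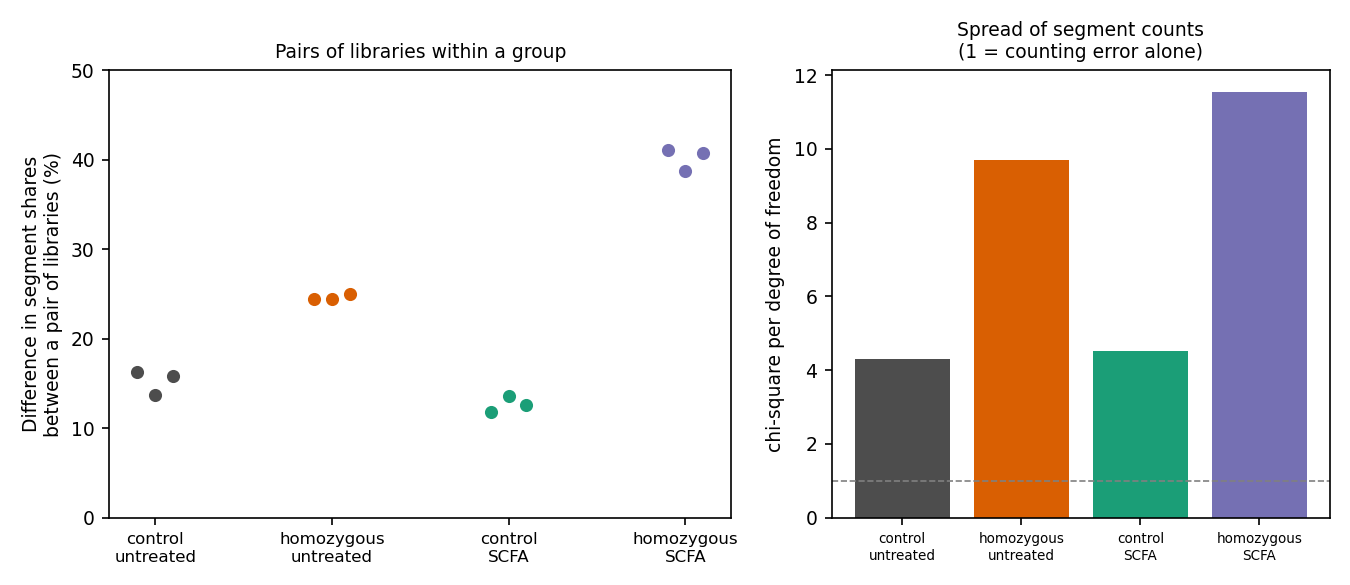
Left, difference in segment shares between each pair of libraries of a group, in percent of counts (points). Right, spread of segment counts within a group as chi-square per degree of freedom (bars; dashed line at 1, counting error alone). Both are larger in the homozygous groups, at 24.4% to 41.1% and 9.70 to 11.6, than in the control groups.

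The near side of the locus, with 88 of the 160 segments, held the smaller part of the counts in each group mean. In the group order used above, the near side held 46.1% ± 3.71, 40.6% ± 2.72, 40.5% ± 2.73 and 41.8% ± 5.55 of the counts. Segments in the orientation of the J segments held 39.0% ± 1.85, 38.6% ± 3.44, 40.4% ± 1.42 and 43.4% ± 3.82. Pseudogenes held 1.34% ± 0.368, 0.677% ± 0.0604, 1.26% ± 0.433 and 0.813% ± 0.731.

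The other parts of the kappa locus and the rest of the light chain pathway were read in the same comparisons. Summed Igkj was at 11.7 ± 1.80, 6.89 ± 1.10, 18.4 ± 2.54 and 2.85 ± 0.676 CPM. Of Igkc and the 5 Igkj segments, 2 fell with genotype without SCFA (Igkc and Igkj1), against 8.13% of all genes. Under SCFA 6 of 6 fell, against 8.47% of all genes. With SCFA in control mice Igkj3 rose (edgeR, log2 fold change 1.43, SE 0.42, adjusted p = 0.0268). Summed lambda V (Iglv) was at 127 ± 10.4, 48.5 ± 3.01, 149 ± 1.11 and 11.9 ± 1.90 CPM, 2.63-fold lower with genotype without SCFA and 12.5-fold lower under SCFA. For kappa V the same ratios were 1.44-fold and 4.58-fold. Of 8 tested lambda genes, 7 fell without SCFA (against 8.13% of all genes) and 8 under SCFA (against 8.47%). Heavy chain V segments (Ighv) summed to 190 ± 11.9, 93.7 ± 0.454, 216 ± 4.22 and 43.5 ± 6.56 CPM, and 11 of 74 tested fell without SCFA (against 8.13% of all genes) and 44 under SCFA (against 8.47% of all genes).

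The surrogate light chain genes were nearly absent in homozygous SCFA, at a summed 3.15 ± 1.35 CPM against 173 ± 9.67, 62.9 ± 8.19 and 135 ± 8.51 CPM in the other groups. With genotype, 3 of 4 fell without SCFA (against 8.13% of all genes) and 4 of 4 under SCFA (against 8.47%). Among them, Igll1 (lambda 5) was at 39.3 ± 3.61, 18.3 ± 2.82, 21.5 ± 3.13 and 0.0516 ± 0.0894 CPM. The recombinase genes Rag1 and Rag2 had 0 counts in all 3 homozygous SCFA libraries, which allows up to 0.0527 CPM over the group. Rag1 was at 44.1 ± 5.13, 15.9 ± 2.79 and 58.3 ± 12.2 CPM in control untreated, homozygous untreated and control SCFA, and Rag2 at 36.0 ± 12.1, 19.9 ± 4.41 and 40.5 ± 2.43 CPM. The 12 recombination and end joining genes summed to 1172 ± 128, 1240 ± 32.9, 1363 ± 56.7 and 838.7 ± 71.3 CPM, so Rag1 and Rag2 do not stand for the list. With genotype without SCFA, 2 rose and 2 fell, against 6.69% and 8.13% of all genes. Under SCFA 0 rose and 7 fell, against 8.89% and 8.47% of all genes.

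Of 14 transcription factors and other regulators tied to the opening of the kappa locus, 8 fell and 0 rose with genotype without SCFA. The shares over all genes were 8.13% lower and 6.69% higher. Under SCFA 11 fell and 1 rose, against 8.47% and 8.89% of all genes. The list summed to 2135 ± 258, 1232 ± 90.1, 1823 ± 29.0 and 1091 ± 107 CPM. Ebf1 and Irf4 fell further with genotype under SCFA than this sum and do not stand for the list. Ebf1, a factor that sets B lineage identity, was at 128 ± 5.74, 45.3 ± 5.07, 170 ± 7.41 and 8.20 ± 0.255 CPM. Irf4, which acts at the kappa enhancers, was at 52.8 ± 7.86, 18.2 ± 3.80, 49.8 ± 4.56 and 5.24 ± 0.521 CPM.

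Markers of the cell types that could carry these transcripts moved as follows, and their part in the kappa values was not tested. The 14 immature and mature B cell markers summed to 3892 ± 263, 1392 ± 86.6, 3340 ± 65.4 and 649.7 ± 39.8 CPM. With genotype, 10 fell without SCFA (against 8.13% of all genes) and 11 under SCFA (against 8.47%), with 0 rises in either (against 6.69% and 8.89%). The 15 plasma cell markers summed to 767 ± 4.21, 770.6 ± 16.2, 744.6 ± 33.4 and 634.1 ± 41.0 CPM. Of the 14 tested, 2 rose and 3 fell with genotype without SCFA, against 6.69% and 8.13% of all genes. Under SCFA 2 rose and 4 fell, against 8.89% and 8.47% of all genes. Jchain, which links antibody multimers in plasma cells, was 1 of the 2 that rose with genotype without SCFA (log2 fold change 1.55, SE 0.40, adjusted p = 0.0217). With 3 others falling and the sums of the 2 untreated groups overlapping, Jchain does not stand for the list. The 10 T cell markers summed to 96.1 ± 5.30, 63.6 ± 4.29, 70.2 ± 10.7 and 64.4 ± 1.6 CPM. Summed neutrophil markers had group means of 41851 to 59602 CPM, monocyte markers 4590 to 6778 CPM and erythroid markers 2342 to 19602 CPM, the last lowest in homozygous SCFA.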

How the data were processed

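Poly(A) RNA libraries of 12 marrow cultures were analysed. Per the submitters' processing notes, the tools were STAR and featureCounts and the build mm10. Their versions, the annotation, the strand setting and the treatment of multi-mapping reads are not given in the sources used. The table the authors deposited holds raw counts per gene symbol, without normalization. CPM were computed here from all counts of a library (16954355 to 20748995).

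The main test was the quasi-likelihood test of edgeR 4.0.16 (R 4.3.3), after filterByExpr and with TMM factors, 4 group means over all 12 libraries and Benjamini-Hochberg adjustment over 15674 genes, calling adjusted p under 0.05. The procedure was tested on simulated data. Sums and shares over segments are descriptions, given without a test. No replicates were merged, since all pairs differed beyond counting error (chi-square divided by degrees of freedom, 11.6 to 84.8).

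The members, the gene lists and the rules were chosen with earlier results of these data known. Segments named are the 12 of highest mean CPM, up to 5 rises and 5 falls per comparison among called segments without overlap, those at the filter's edge and the most counted of each library; others are said to be chosen after their values were seen. Listed genes are named, at most 3 per list, by smallest p.

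Alternatives were RLE factors, no filter, a filter of at least 10 counts in 3 libraries, DESeq2 1.42.0, limma-voom (limma 3.58.1) with quality weights, the compared groups alone, a replicate block, and each library left out. Sequences and coordinates come from GENCODE M21. Python 3.11.15 with pandas 2.3.3, Biopython 1.88 and matplotlib 3.10.9 made the tables and figures.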

Additional observations from a re-analysis of the deposited data

Results flagged for a closer look

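In 17 of the segments named, the genotype difference under SCFA differed from that without SCFA by edgeR's interaction test (adjusted p under 0.05). All were in the direction of a more negative genotype difference under SCFA, and not all of them fell without SCFA. Several had been named for large falls in comparisons that share the homozygous SCFA libraries with the interaction, so their direction is no independent result. Of all 84 tested segments 31 were called, all negative, against 11.6% of all genes negative and 13.6% positive. The interaction values also carry the difference in date, which cannot be told apart from treatment. The log2 differences were -4.63 for Igkv5-48 (adjusted p = 3.1e-04), -3.25 for Igkv1-135 (4.2e-04), -2.35 for Igkv10-96 (7.6e-04), -3.96 for Igkv16-104 (0.00106), -2.92 for Igkv17-121 (0.00208) and -2.41 for Igkv19-93 (0.00462). They were -2.55 for Igkv14-111 (0.00548), -3.59 for Igkv8-28 (0.00731), -4.27 for Igkv5-45 (0.0123), -3.78 for Igkv10-95 (0.0166), -4.35 for Igkv14-130 (0.0279), -3.36 for Igkv1-133 (0.0459) and -3.66 for Igkv11-125 (0.0483). Igkv6-15 (-1.27, adjusted p = 0.0455) and Igkv1-117 (-1.36, adjusted p = 0.0461) lay near the threshold. Igkv1-35 (-7.49, adjusted p = 0.00637) and Igkv8-18 (-6.00, adjusted p = 0.0123) had 0 counts in homozygous SCFA, so the size of their fitted values depends on the prior count.

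Igkv counts per 100 Igkc counts differed between genotypes in opposite directions, with a log2 ratio of 0.51 without SCFA and -0.38 under SCFA, and every library of one group lay on one side of the other. The difference between these ratios was not tested.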

How the results depend on the processing

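Calls for genotype without SCFA (4) numbered 7 without a filter on low counts, 2 in a fit of the compared groups alone, 11 by limma-voom, 6 by DESeq2 and 0 to 5 with each library left out. For SCFA in control mice (2) they numbered 6 by limma-voom and 0 to 3 with each library left out. Calls numbered 41 to 50 (main 50) for genotype under SCFA, 21 to 31 (main 30) for SCFA in homozygous mice and 21 to 31 (main 31) for the interaction with each library left out, and no alternative moved these by over 1.5 times. Replicate numbers did not pair the libraries, since the correlations of same-numbered deviations were -0.114 to 0.0432. With the replicate number as a block the calls numbered 3, 49, 1 (Igkv1-99 lost its call), 29 and 25 in that order. Over all named segments and comparisons, 1143 values kept their side of the threshold, 72 lost a call and 16 gained one. No value called in the main or the alternative fit changed direction. Changes of sign among values called in neither fit were not counted, and some occurred. Igkv19-93 without SCFA, for example, was at -0.02 and reached 0.07. The log2 ratio of summed Igkv without SCFA was -0.38 on TMM-scaled libraries, reversed to 0.51 per Igkc, and ran from -0.62 to -0.47 with a library left out. Per Igkc the other ratios were -0.38 (genotype under SCFA; -2.29 to -2.09 in CPM with a library left out), 0.52 (SCFA in control mice; 0.14 to 0.30) and -0.37 (SCFA in homozygous mice; -1.54 to -1.33). The causes were not tested.

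Segments detected fell to 94.5, 85.6 and 93.1 at equal counts in control untreated, homozygous untreated and control SCFA, to 75.7, 61.3, 80 and 35.7 in the 4 groups when at least 10 counts were asked for, and ran over 106 to 109.5, 95.5 to 99, 108 to 111.5 and 79 to 81.5 with a library left out. Without the most counted segment of each library, the near side of the locus held 50.3%, 45.5% and 45.1% in the first 3 groups, and with a library left out 43.9% to 47.3%, 39.1% to 41.7%, 39.3% to 42.0% and 40.0% to 45.0%. Depth limits the segments with few counts, for which 3 counts are 0.145 to 0.177 CPM per library.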
